A study of Mus musculus with 384 samples.

Results

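The ligand TDB was followed over 4 h in bone marrow-derived macrophages on 4 plates, and its 28 wells made up part of 384 libraries of 3′ RNA counts. The wells were taken by their labels: every library of ligand TDB at 0.5, 1, 1.5, 2, 2.5, 3 or 4 h on plates WT1 and WT2 (wild type) or KO1 and KO2 (Myd88 knockout). Each plate gave 1 TDB well at each time and 12 wells labelled 0 h, 1 for each of the 12 ligands, and the 48 wells at 0 h were pooled within their plate as the starting level. The cells came from male C57BL/6 mice of 13 weeks, grown with serum and CMG, and every group, wild type and knockout alike, carried a pool of pathway reporter viruses added on day 4 before replating on day 9. The labels give neither the knockout allele nor the dose of TDB, and no label says whether the plates of a genotype came from separate mice or cultures, so p-values measure the spread between plates, which may be technical.

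TDB is the usual abbreviation of trehalose dibehenate, a synthetic analogue of the mycobacterial cord factor, although the labels do not spell it out. Cord factor glycolipids are bound by the C-type lectin receptor Mincle (Clec4e), which signals through the Fc receptor gamma chain, Syk and Card9 to NF-kB, while Myd88 is the adaptor of most Toll-like receptors and of the interleukin 1 receptor. In macrophages NF-kB drives chemokines, cytokines and its own inhibitors. A separate stress programme is run by NRF2, a transcription factor released from Keap1 when oxidants or electrophiles modify that protein, and its targets make glutathione, reduce thioredoxin and degrade haem.

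The TDB wells held 199700 to 417942 counts each, with a median of 315673.5, so that 1 count stood for 2.39 to 5.01 CPM (counts of a gene per 1000000 counts of its library). Of the 22 macrophage identity genes none was at 0 throughout, and their summed level in TDB wells was 11000 to 13700 CPM in wild type and 12200 to 15000 CPM in knockout, against 12400 to 13800 CPM at 0 h. Myd88 itself stood at 30.4 and 35.0 CPM in the pooled 0 h wells of WT1 and WT2 and at 14.5 and 17.0 CPM in those of KO1 and KO2. In single TDB wells the ranges overlapped, and since the deleted part is not given in the sources used here, a 3′ count outside it would check nothing. Wells of another ligand differed with the label: late Nfkbia reached 7480 and 9700 CPM with CpG, a Toll-like receptor ligand that signals through Myd88, in WT1 and WT2 and 653 and 768 CPM in KO1 and KO2.

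Within the TDB course 2 groups of genes moved at different times. At 1.5 and 2 h Nfkbia, Id2, Id3 and Pde4b, genes of NF-kB feedback, early transcription control and cyclic AMP breakdown, were higher in both genotypes, and in knockout cells the chemokine genes Cxcl2, Ccl2 and Ccl7 rose with them. In the wells from 2.5 to 4 h Gclm, Gclc, Srxn1, Txnrd1 and Hmox1, genes of glutathione, thioredoxin and haem metabolism, rose in both genotypes, and they were highest at 4 h. For the tests, the counts of a plate were summed over 3 classes of wells. The early class held 0.5 and 1 h, the middle class 1.5 and 2 h, and the late class the wells from 2.5 to 4 h. Each class was compared with 0 h of the same genotype by edgeR's quasi-likelihood test, with Benjamini-Hochberg adjusted p under 0.05 as the threshold. In wild type 0 genes passed in the early class (115 at an unadjusted p under 0.05, and 2 by DESeq2), 4 rose in the middle class, and 15 rose and 3 fell (0.0284%) in the late class, of 10562 tested. In knockout 2 rose and 1 fell early, 14 rose in the middle class, and 52 rose and 3 fell (0.0284%) late. These comparisons share their 0 h wells, and wells of other ligands also changed with time, as set out below.

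The late oxidative stress genes were led by Gclm (mm10 chromosome 3, 122245557 to 122270732, plus strand), the modifier subunit of glutamate-cysteine ligase, the rate-limiting enzyme of glutathione synthesis. On WT1 Gclm stood at 184 CPM in the pooled 0 h wells and then at 162, 159, 200, 388, 484 and 1150 CPM from 0.5 to 3 h, and at 3220 CPM at 4 h. On WT2 the values were 196 CPM at 0 h, then 184, 180, 275, 370, 534, 932 and 3450 CPM. On KO1 they were 142 CPM at 0 h, then 78.0, 50.8, 144, 346, 343, 549 and 2320 CPM, and on KO2 140 CPM, then 213, 125, 257, 371, 417, 720 and 2370 CPM. The 2 h wells of all 4 plates already lay above the highest of the 12 wells at 0 h of their plate (283, 250, 187 and 204 CPM), and the 4 h well was the highest of the course on each plate. At 4 h the mean was 3340 ± 163 CPM in wild type and 2350 ± 32.8 CPM in knockout (SD, n = 2 plates each), 17.6-fold and 16.7-fold the 0 h level. Late Gclm was 3.23 higher than 0 h on the log2 scale in wild type (SE 0.31, edgeR adjusted p = 1.69e-14) and 3.00 higher in knockout (SE 0.31, adjusted p = 7.26e-13), with both plates of each higher.

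**Figure D1:**
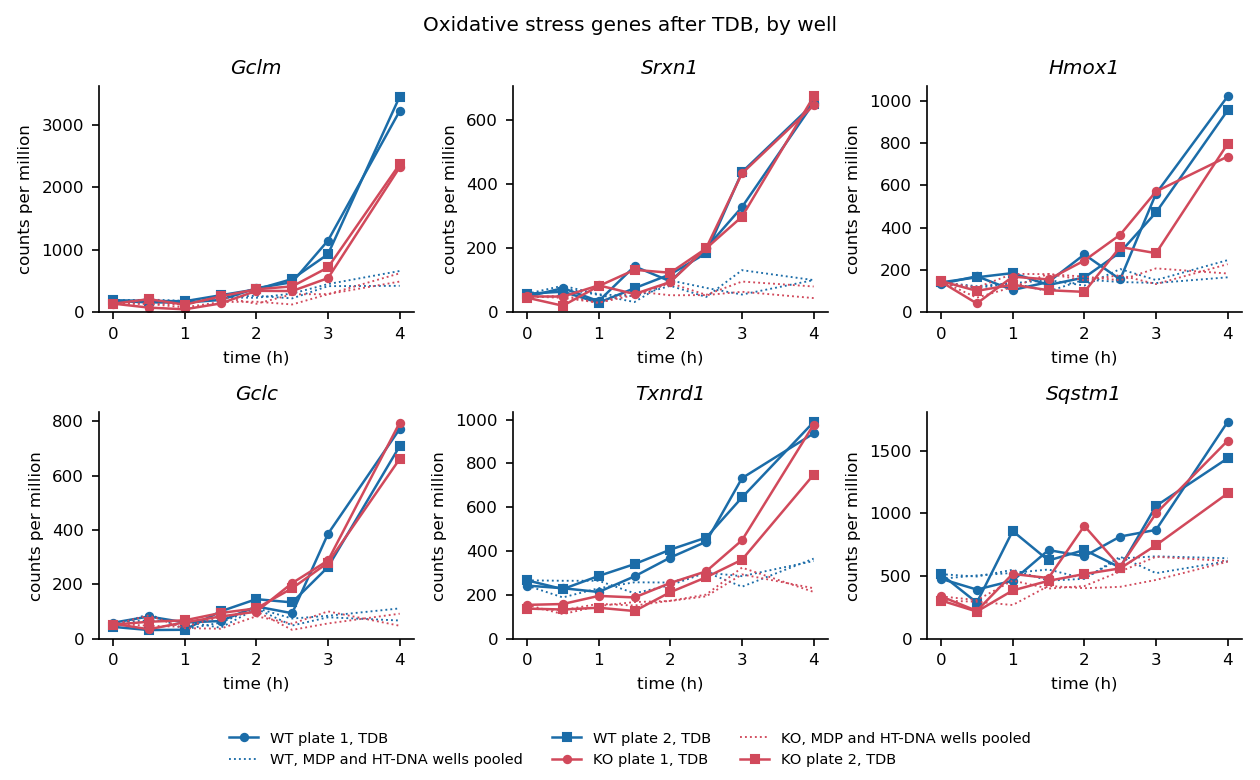
CPM against hours after addition (linear axes) for 6 NRF2 target genes, 1 panel each, with solid lines for the TDB wells of each plate (wild type blue, knockout red, circles plate 1, squares plate 2) and dotted lines for the MDP and HT-DNA wells of the same plate pooled; the point at 0 is the plate's pooled 12 wells at 0 h. In every panel the TDB wells were highest at 4 h on all 4 plates, with Gclm at 3220, 3450, 2320 and 2370 CPM, and the dotted lines were lower than the solid ones at 4 h.

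Srxn1 (chromosome 2, 152105516 to 152111376, plus strand) encodes sulfiredoxin, which restores overoxidised peroxiredoxins. Its 0 h levels were 49.2, 58.4, 50.1 and 46.2 CPM on WT1, WT2, KO1 and KO2. Its 2.5 h levels were 201, 185, 201 and 200 CPM, its 3 h levels 329, 438, 434 and 299 CPM and its 4 h levels 654, 652, 646 and 674 CPM. The 4 plates lay close together at 2.5 and 4 h and spread more at 3 h. The late change was 3.01 in wild type (SE 0.38, adjusted p = 7.24e-09) and 3.11 in knockout (SE 0.38, adjusted p = 1.29e-09).

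Hmox1 (chromosome 8, 75093621 to 75100589, plus strand) encodes haem oxygenase 1, which opens the haem ring and frees its iron. It stood at 135, 142, 145 and 148 CPM at 0 h on WT1, WT2, KO1 and KO2. It was at 561, 472, 571 and 280 CPM at 3 h, and at 1020, 954, 736 and 796 CPM at 4 h. Up to 2 h its TDB wells lay between 42.5 and 274 CPM, within or near the range of the single 0 h wells, whose highest values were 181 to 241 CPM. The late change was 2.15 in wild type (SE 0.33, adjusted p = 4.52e-06) and 1.81 in knockout (SE 0.33, adjusted p = 9.35e-05).

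Gclc (chromosome 9, 77754535 to 77794485, plus strand), the catalytic partner of Gclm, rose from 59.2, 44.2, 56.0 and 52.3 CPM at 0 h to 771, 708, 794 and 661 CPM at 4 h, 14.3-fold in wild type and 13.4-fold in knockout. Txnrd1 (chromosome 10, 82833951 to 82897712, plus strand), the cytosolic thioredoxin reductase, went from 243, 267, 155 and 138 CPM to 937, 989, 977 and 749 CPM. Sqstm1 (chromosome 11, 50199366 to 50210827, minus strand), the autophagy receptor p62 that also binds Keap1, went from 479, 516, 339 and 306 CPM to 1730, 1440, 1580 and 1160 CPM. On every plate the 4 h well of these 3 genes was the highest of the course. Late changes in wild type and knockout were 3.05 and 2.91 for Gclc (adjusted p = 4.55e-05 and 3.53e-05), 1.53 and 1.85 for Txnrd1 (adjusted p = 0.000389 and 1.84e-06), and 1.18 and 1.58 for Sqstm1 (adjusted p = 0.0017 and 7.41e-07). After a plate-wide background level was subtracted, Gclc did not pass in either genotype, at 3.69 (adjusted p = 0.0528) and 3.38 (adjusted p = 0.103).

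Of 42 NRF2 targets listed 37 were tested, and these 6 were the ones that rose late, in wild type as in knockout. Genes called higher late were 0.142% and 0.492% of all genes tested. The list's median late change was 0.68 in wild type and 0.66 in knockout, against -0.03 over all genes in each. Of the 37, 0 passed in the early class (0 in wild type and 1 in knockout at an unadjusted p under 0.05, and 0 by DESeq2) and 0 in the middle class (4 and 5 at an unadjusted p under 0.05, and 0 and 2 by DESeq2). Members that missed the late threshold included Prdx1, a peroxiredoxin, at 1.08 and 1.13 (adjusted p = 0.487 and 0.157), and Slc7a11, the cystine importer, at 2.06 and 2.11 from few counts. Another was Mafg, a small Maf partner of NRF2 named after its values were seen, at 1.23 and 1.05. Prdx1 did pass the test over all 7 times together, at an adjusted p of 0.0118 in wild type and 0.0159 in knockout, and stood at 2830, 2820, 3520 and 4070 CPM at 4 h against 948, 1060, 1150 and 1210 CPM at 0 h. Of 23 other oxidant defence genes 0 rose late and Sesn1 alone fell, in knockout. Of 11 genes of the NADPH oxidase and other oxidant makers 0 passed in either genotype (0 in wild type and 1 in knockout at an unadjusted p under 0.05, and 0 by DESeq2). Without WT1 or without WT2, Gclm was the 1 gene that still passed the late test in wild type, whereas in knockout all 6 passed with either plate left out.

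Sequences upstream of the starts are shown as examples for Gclm and Srxn1, which rose late. Prdx1, the NRF2 target that passed over the 7 times together, and the inflammatory genes Nfkbia and Cxcl2 follow. Each run is the 250 bases before the RefSeq start in GRCm38.p6, 5′ to 3′ on the gene's strand, with capitals where a motif was matched on either strand. The motifs were TGACNNNGC, the core of the antioxidant response element, TGACTCA, an AP-1 site, and GGGA and TTCC with any 2 bases between them, an NF-kB site. They were found in 10.2%, 4.46% and 1.21% of 32851 upstream windows of the same length. In 10 windows of 8 genes grouped as oxidative stress they were matched in 4, 3 and 0. In 11 windows of 8 inflammatory genes they were matched in 1, 0 and 3. The windows shown all held a match, whereas those of Sqstm1, Esd, Ccl3, Tlr2, Clec4e, Pde4b and Cebpb held none. The windows lay at chr3:122245307-122245556 (plus strand), chr2:152105274-152105523 (plus), chr4:116685349-116685598 (plus), chr12:55492648-55492897 (minus) and chr5:90903649-90903898 (plus).
Gclm: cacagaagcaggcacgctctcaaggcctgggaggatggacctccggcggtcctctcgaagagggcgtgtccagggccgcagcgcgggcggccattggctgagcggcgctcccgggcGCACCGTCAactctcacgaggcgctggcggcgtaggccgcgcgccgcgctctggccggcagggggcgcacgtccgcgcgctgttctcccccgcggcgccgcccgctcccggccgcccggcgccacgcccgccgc
Srxn1: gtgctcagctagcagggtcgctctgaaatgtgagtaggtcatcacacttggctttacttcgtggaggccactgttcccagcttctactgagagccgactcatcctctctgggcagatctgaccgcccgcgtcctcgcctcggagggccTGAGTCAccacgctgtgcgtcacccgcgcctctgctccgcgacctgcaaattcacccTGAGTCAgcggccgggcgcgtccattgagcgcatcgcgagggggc
Prdx1: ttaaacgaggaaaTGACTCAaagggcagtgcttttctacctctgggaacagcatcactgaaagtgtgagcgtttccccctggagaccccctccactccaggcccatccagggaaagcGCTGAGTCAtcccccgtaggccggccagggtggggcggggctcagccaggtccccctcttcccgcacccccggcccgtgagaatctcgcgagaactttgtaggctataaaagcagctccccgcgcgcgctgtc
Nfkbia: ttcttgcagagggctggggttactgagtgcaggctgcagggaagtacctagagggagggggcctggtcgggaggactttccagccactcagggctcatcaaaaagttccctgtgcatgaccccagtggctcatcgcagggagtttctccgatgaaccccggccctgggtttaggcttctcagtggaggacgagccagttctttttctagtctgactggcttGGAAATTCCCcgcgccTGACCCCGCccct
Cxcl2: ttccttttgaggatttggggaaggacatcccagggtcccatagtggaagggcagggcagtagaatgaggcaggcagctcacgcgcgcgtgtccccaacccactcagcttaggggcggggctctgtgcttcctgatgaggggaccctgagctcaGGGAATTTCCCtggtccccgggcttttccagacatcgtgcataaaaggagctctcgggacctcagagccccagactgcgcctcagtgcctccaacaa

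In Gclm the capitals are 1 match of TGACNNNGC, on the reverse strand. Srxn1 held 2 matches of TGACTCA on the reverse strand, and Prdx1 held TGACTCA once on each strand, with a reverse TGACNNNGC overlapping one of them. Nfkbia held 1 reverse match of the NF-kB motif and 1 forward match of TGACNNNGC. The capitals in Cxcl2 are the NF-kB motif on both strands, overlapping each other. These matches describe letters in the windows and do not show that a factor was bound.

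Inflammatory genes differed in when they were first higher, and some were called in the late class alone. Nfkbia (chromosome 12, 55489410 to 55492647, minus strand), the NF-kB inhibitor IkB alpha and itself a direct NF-kB target, stood at 954, 1080, 627 and 626 CPM at 0 h on WT1, WT2, KO1 and KO2. At 1 h it was at 1050, 1400, 1140 and 1300 CPM, at 1.5 h at 2420, 2420, 4130 and 3030 CPM, and at 4 h at 2200, 2080, 2310 and 2300 CPM. The step between 1 and 1.5 h was present on all 4 plates, and in knockout the 1.5 h mean, 5.71-fold the 0 h level, was above the 4 h mean of 3.67-fold. In the middle class Nfkbia was 1.37 higher in wild type (SE 0.23, adjusted p = 0.000297) and 2.42 higher in knockout (SE 0.24, adjusted p = 2.58e-13).

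Id3, an inhibitor of basic helix-loop-helix transcription factors, was already higher at 1 h. It stood at 40.6, 45.1, 36.2 and 31.7 CPM at 0 h and at 172, 146, 223 and 210 CPM at 1 h. It was at 288, 148, 452 and 326 CPM at 1.5 h and at 148, 149, 122 and 126 CPM at 4 h. Its middle change was 2.14 in wild type (adjusted p = 1.91e-06) and 3.35 in knockout (adjusted p = 2.36e-15). Id3 was also 1 of the 2 genes (0.0189% of those tested) that rose in the early class of knockout cells, with the monocyte chemoattractant Ccl7. The Ccl7 change of the early class was 0.94 without KO1 (adjusted p = 0.998), and it also did not pass without WT1 (0.368), without WT2 (0.402) or after background subtraction (0.454). The other genes that rose in the middle class of wild type were Pde4b and Id2, by 1.60 and 1.06. Pde4b is a phosphodiesterase that degrades cyclic AMP, and Id2 is a relative of Id3. Both rose in knockout, by 2.86 and 1.31. Middle Pde4b was at 229, 271, 242 and 240 CPM with TDB on WT1, WT2, KO1 and KO2. It was at 215, 198, 239 and 245 CPM with MDP and at 109, 63.5, 56.1 and 46.6 CPM with HT-DNA. Middle Id3 was at 216, 148, 363 and 338 CPM with TDB. It was at 167, 212, 195 and 262 CPM with MDP and at 175, 164, 248 and 244 CPM with HT-DNA, also above its 0 h level. Middle Id2 was highest with TDB on all 4 plates, at 1520, 1630, 1510 and 1440 CPM on WT1, WT2, KO1 and KO2. The next ligand on each plate reached 1330, 1400, 1210 and 1320 CPM (HT-DNA, MDP, SeV and MDP).

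Cxcl2 (chromosome 5, 90903871 to 90905938, plus strand), a chemokine that draws neutrophils, differed between genotypes in the wells labelled 0 h. It stood at 310 and 400 CPM on WT1 and WT2 and at 31.3 and 34.5 CPM on KO1 and KO2. Late Cxcl2 with the highest other ligand was 3730 and 4080 CPM on WT1 and WT2 and 158 and 280 CPM on KO1 and KO2. The plate-wide background was put at 28.5%, 29.9%, 26.8% and 24.4% of the plate mean on WT1, WT2, KO1 and KO2. Its part in the 0 h levels of Cxcl2 was not tested. At 1 h Cxcl2 stood at 517, 491, 186 and 233 CPM and at 2 h at 909, 709, 356 and 344 CPM. The knockout wells after 2 h, at 185 to 463 CPM, were around the level that wild-type wells had at 0 h. The middle change was 3.16 in knockout (SE 0.46, adjusted p = 4.17e-06) and 1.27 in wild type (SE 0.41, adjusted p = 1). Ccl2, another monocyte chemoattractant, and Ccl7 were high for a short time in knockout. On KO1 and KO2 Ccl2 went from 47.5 and 46.2 CPM at 0 h to 267 and 146 CPM at 1.5 h and 87.2 and 31.5 CPM at 4 h. Ccl7 went from 35.6 and 51.3 CPM to 301 and 167 CPM at 1 h and 32.0 and 28.3 CPM at 4 h. Their middle changes in knockout were 2.00 (adjusted p = 0.00234) and 1.95 (adjusted p = 0.00113). Neither passed without KO1, at 1.73 for Ccl2 (adjusted p = 0.0955) and 1.35 for Ccl7 (adjusted p = 0.219), or after background subtraction (adjusted p = 0.0952 each). With the 0 h well labelled TDB alone as the starting level, Ccl2 did not pass either (adjusted p = 0.152).

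**Figure D2:**
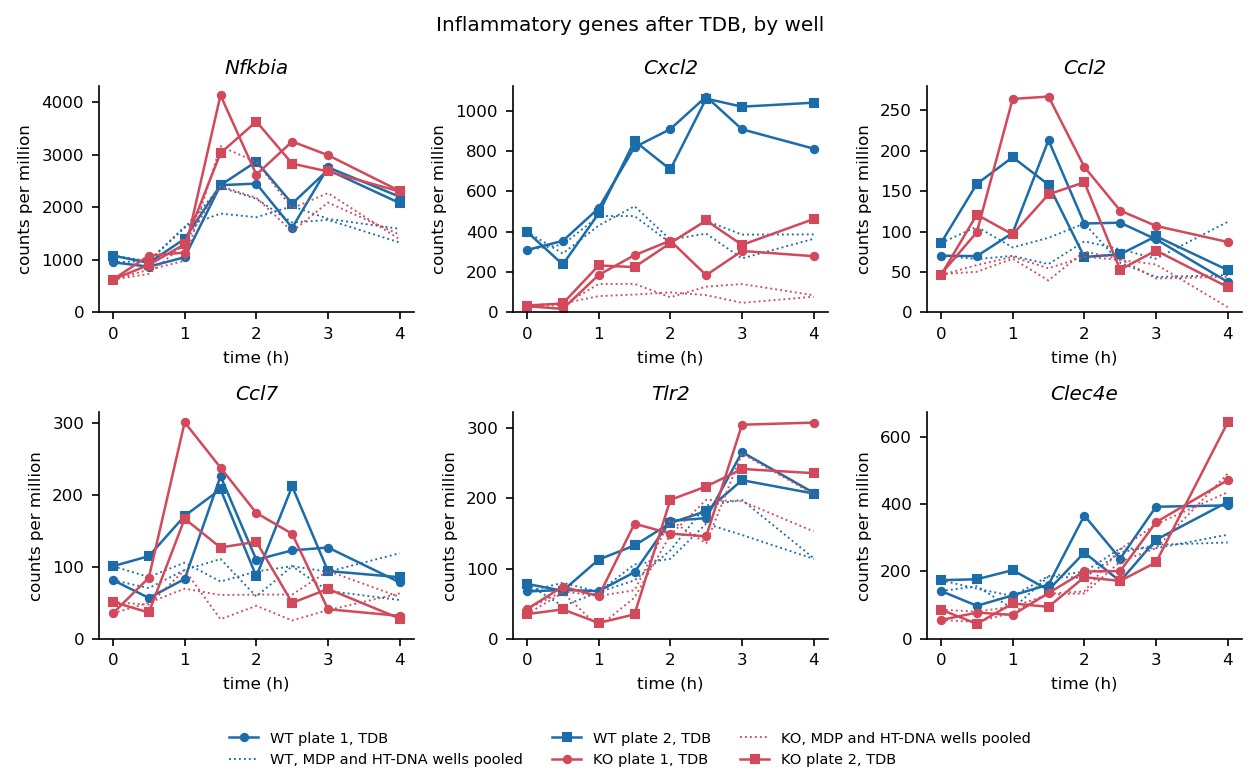
CPM against hours after addition (linear axes) for Nfkbia, Cxcl2, Ccl2, Ccl7, Tlr2 and Clec4e, drawn as for the oxidative stress genes. Nfkbia steps up between 1 h (1050 to 1400 CPM) and 1.5 h (2420 to 4130 CPM), Ccl2 and Ccl7 fall back by 4 h, and Clec4e is highest at 4 h; the dotted MDP and HT-DNA lines also rise for Nfkbia, Tlr2 and Clec4e.

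Of the 48 NF-kB primary response genes, all tested, 1 rose in the middle class of wild type (background 0.0379% of genes) and 6 in that of knockout (0.133%), with list medians of 0.31 and 0.59. The 6 were Nfkbia, Cxcl2, Ccl7, Ccl2, Tlr2 and Ccrl2. In the late class 2 rose in wild type (background 0.142% of genes), Nfkbia and Tlr2, and 14 in knockout (0.492%), with medians of 0.30 and 0.87. Among immediate early genes, of 27 tested, 2 rose in wild type in each of the middle and late classes (Id3 and Id2) and 5 and 6 in knockout. The shares of all genes are those just given. Junb, Csrnp1 and Nr4a1 joined them in the middle class of knockout, and Junb, Csrnp1, Atf3 and Gadd45b in the late class. The late Atf3 call was lost in 9 of 12 alternatives, among them plate as a replicate block (0.89, adjusted p = 0.053) and each plate left out. Among NF-kB list members that did not pass late, Tnf, the cytokine tumour necrosis factor, stood at -0.08 in wild type and 0.11 in knockout, the cytokine gene Il1b at -0.20 and 0.90, and Tnfaip3, a ubiquitin-editing brake on NF-kB, at 0.28 and 1.15 (adjusted p = 0.216). The count of 4 in the middle class of wild type was 0 without WT1, 1 without WT2, and 8 without KO1 or without KO2. All plates entered 1 fit, and the cause of these moves was not tested. In knockout the 14 became 8 without WT1 or WT2 and 23 without KO2.

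Among receptor genes, Clec4e passed late in knockout alone and Tlr2 in both genotypes. Clec4e (chromosome 6, 123281789 to 123289870, minus strand), the Mincle gene, stood at 142, 174, 56.0 and 86.6 CPM at 0 h on WT1, WT2, KO1 and KO2. It was at 366, 256, 200 and 183 CPM at 2 h and at 396, 406, 471 and 642 CPM at 4 h. At 2 h both knockout wells were below both wild-type wells, and at 4 h both were above them. The late change was 2.27 in knockout (SE 0.32, adjusted p = 8.32e-08) and 1.07 in wild type (SE 0.31, adjusted p = 0.246). Tlr2 (chromosome 3, 83836272 to 83841767, minus strand), the receptor of bacterial lipoproteins, went from 67.5, 78.3, 42.4 and 35.3 CPM at 0 h to 208, 207, 308 and 236 CPM at 4 h. Its late change was 1.56 in wild type (adjusted p = 0.012) and 2.69 in knockout (adjusted p = 2.43e-08). Clec4e was 1 of 17 C-type lectin receptors tested to rise, in knockout. Of 26 genes of the Syk and Card9 pathway 0 passed in either genotype (1 in wild type and 3 in knockout at an unadjusted p under 0.05, and 1 and 0 by DESeq2).

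Other late risers of knockout cells included Il1rn, the interleukin 1 receptor antagonist (1.93, adjusted p = 0.000151), Cxcl3, a neutrophil chemokine (3.64, adjusted p = 0.00401), and Csf1, the macrophage growth factor (2.62, adjusted p = 0.0119). Gdf15, a stress-induced secreted factor, also rose (2.94, adjusted p = 0.00996), as did Relb, an NF-kB subunit (2.14, adjusted p = 0.00152). The Gdf15 call was lost with any 1 of the 4 plates left out (adjusted p = 0.058 to 0.131). Csf1 was at 1.82 without KO2 (adjusted p = 0.828), and neither Csf1 nor Cxcl3 passed without WT1 or without WT2. After background subtraction Gdf15, Csf1 and Cxcl3 did not pass. Ezr, which ties the membrane to actin, rose in both genotypes, by 1.89 in wild type (adjusted p = 9.76e-05) and 2.58 in knockout (adjusted p = 8.35e-09). Like the oxidative genes it had its highest well at 4 h on every plate (865, 1000, 634 and 721 CPM). Esd, an esterase that hydrolyses S-formylglutathione, rose by 1.11 and 1.19. Of 55 interferon-stimulated genes 0 passed in any class of either genotype (late: 4 and 5 at an unadjusted p under 0.05, 0 by DESeq2), and their late medians were -0.22 and -0.35. Over all 7 times together Iigp1 was the 1 interferon-stimulated gene that changed, in wild type. The genes that fell late were Fam46a in both genotypes (-1.72 and -1.27), Maf, a macrophage transcription factor, and Rell1 in wild type (-1.19, adjusted p = 0.00824, and -1.13, adjusted p = 0.0292), and Gm4951 and Sesn1 in knockout. Of these 6 calls 0 passed without WT1 or without WT2. In whole-well RNA fewer cells of a type and less RNA per cell cannot be told apart, and Maf alone of the 22 macrophage identity genes fell in wild type while Cd14 rose in knockout (1.17, adjusted p = 0.00152).

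The order in time was tested within the TDB wells, without the 0 h wells. Late against early, 6 NRF2 targets rose in wild type, of 11 genes higher (0.104% of genes), and the same 6 in knockout, of 23 higher (0.218%). Gclm rose by 3.39 and 3.24, Srxn1 by 3.13 and 2.81, and Gclc by 3.05 and 2.82. Hmox1 rose by 2.00 and 2.19, Txnrd1 by 1.62 and 1.74, and Sqstm1 by 1.13 and 1.50. Of the NF-kB list Nfkbia rose late against early in wild type and 7 members rose in knockout, among them Nfkbia, Tlr2 and Clec4e. Late against middle, a comparison added after the data were seen, 3 NRF2 targets (Gclm, Srxn1 and Hmox1) rose in wild type (0.0379% of genes higher) and 4 in knockout (those and Txnrd1, 0.0568%). In that comparison 0 of 48 NF-kB genes passed in wild type or knockout (5 and 17 at an unadjusted p under 0.05, and 0 by DESeq2), and likewise 0 of 27 immediate early genes (1 and 6, and 0 by DESeq2). The late against middle counts of 5 genes in wild type and 6 in knockout were 0 and 1 without WT1 and 0 and 1 without WT2. They were 16 and 15 without KO1 and 16 and 3 without KO2. After a plate-wide background level was subtracted, 2 genes passed late against middle in wild type and 0 in knockout. The late against early count of 15 in wild type was 1 without WT1 or WT2 and 40 and 41 without KO1 and KO2. In knockout 25 genes passed late against early, 15 without WT1 or WT2 and 39 without KO1.

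**Figure D3:**
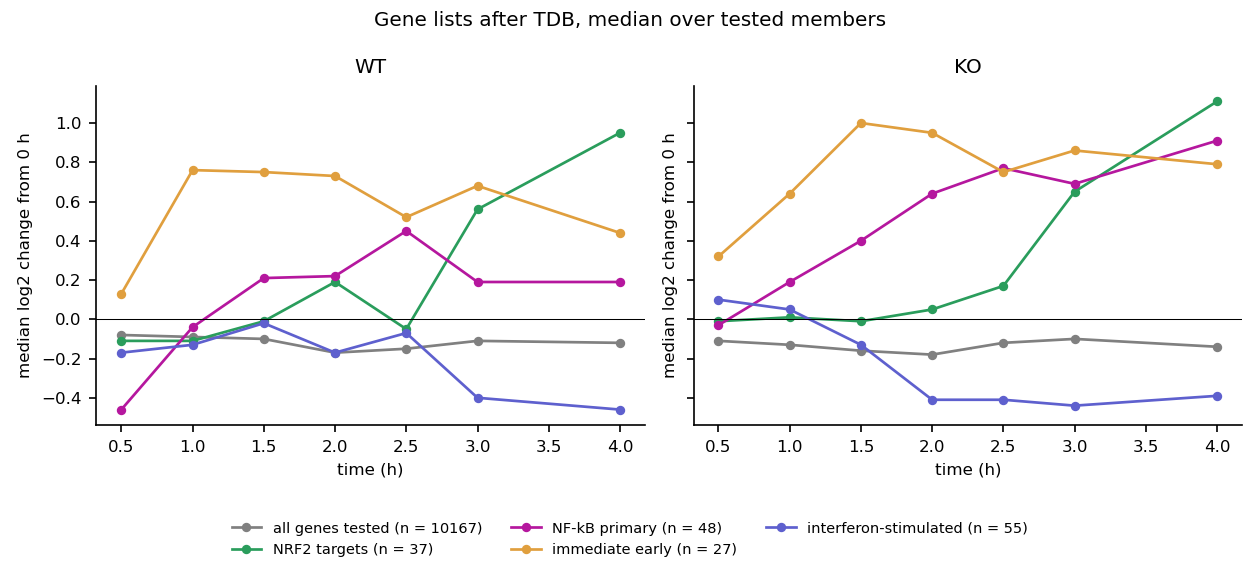
Median log2 change from 0 h, by hours after addition, in wild type and knockout panels. Lines show the tested members of the NRF2, NF-kB, immediate early and interferon-stimulated lists, and all genes. The NF-kB median in knockout is at 0.40 by 1.5 h and 0.64 by 2 h, while the NRF2 median is at -0.01 and 0.05 at those times and reaches 1.11 at 4 h.

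Medians of whole lists followed the same order. The NRF2 median in wild type was -0.01 at 1.5 h, 0.19 at 2 h, 0.56 at 3 h and 0.95 at 4 h, and in knockout -0.01, 0.05, 0.65 and 1.11. The NF-kB median in knockout was 0.19 at 1 h, 0.40 at 1.5 h, 0.64 at 2 h and 0.91 at 4 h, but in wild type it stayed between -0.46 and 0.45 and stood at 0.19 at 4 h. The immediate early median was already 0.76 in wild type and 0.64 in knockout at 1 h. A gene was counted as doubled at the first time when both plates of a genotype were at least 2-fold their 0 h level. By that count Id3 doubled at 1 h in wild type and 0.5 h in knockout, Nfkbia and Pde4b at 1.5 h in both, and Cxcl2 and Ccl7 at 1.5 h and 1 h. Gclm doubled at 2.5 h and 2 h, Srxn1 at 2.5 h in both, and Gclc at 2 h and 2.5 h. Hmox1 doubled at 3 h and 2.5 h, Txnrd1 at 3 h in both, and Sqstm1 at 4 h and 3 h. All 6 NRF2 targets that rose had their highest mean at 4 h in both genotypes, whereas of 17 NF-kB members that rose in any class of knockout, 5 had it at 4 h and 4 by 2 h. In wild type 2 NF-kB members rose, Nfkbia and Tlr2, and both had it at 3 h.

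Wells of other ligands also changed with time, so TDB was set against 2 ligands of the same plates and times: MDP, usually muramyl dipeptide, which acts through NOD2, and HT-DNA, usually herring testis DNA. Late, 6 NRF2 targets were higher with TDB in wild type (0.0852% of genes higher). Gclc was higher by 2.39, Srxn1 by 2.32, Gclm by 2.09, Hmox1 by 1.80, Txnrd1 by 1.23 and Sqstm1 by 0.84 (adjusted p = 0.0407). In knockout 6 were higher (0.18%), namely Srxn1 by 2.78, Gclc by 2.60, Gclm by 1.91, Hmox1 by 1.44, Mafg by 1.43 and Sqstm1 by 0.88. Late Gclm stood at 1710, 1800, 1130 and 1100 CPM with TDB and at 363, 491, 390 and 352 CPM in the pooled MDP and HT-DNA wells of WT1, WT2, KO1 and KO2.

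Fewer inflammatory genes differed from those wells. In wild type 0 genes passed in the middle class (416 at an unadjusted p under 0.05, and 0 by DESeq2), and late 0 of 48 NF-kB genes passed (7, and 1 by DESeq2). In knockout 5 NF-kB genes were higher with TDB in the middle class (0.0852% of genes): Ccl2 by 2.30, Cxcl2 by 1.85, Ccl3 and Ccl7 by 1.76 each, and Nfkbia by 0.83. For Nfkbia the adjusted p was 0.0458, and 0.138 with plate as a replicate block. Late in knockout Cxcl2 (2.05), Nfkbia (1.00) and Plek (0.90) were higher. Clec4e, Tlr2 and Id3 did not pass. Late Clec4e was at 352, 299, 352 and 330 CPM with TDB and 274, 285, 360 and 321 CPM in the reference wells. Middle and late Nfkbia in those wells was also above its 0 h level. The 2 reference ligands differed. Middle Nfkbia was at 2530, 2970, 3070 and 4350 CPM with MDP and at 1160, 1170, 891 and 1020 CPM with HT-DNA. Late Clec4e was at 373, 361, 420 and 454 CPM with MDP and at 174, 173, 172 and 111 CPM with HT-DNA. Against HT-DNA alone, middle Ccl2, Cxcl2, Ccl3 and Nfkbia still passed in knockout and Ccl7 did not. With MDP alone as the reference, 4 genes passed late in wild type (Gclc, Gclm, Hmox1 and Srxn1) and 3 in knockout (Gclc, Hmox1 and Srxn1) in place of 10 and 22. Gclm in knockout was then at 1.31 (adjusted p = 0.0533), and late Cxcl2, Nfkbia and Plek did not pass. In the middle class of knockout 1 gene passed in place of 11, with Ccl2 at 1.13 (adjusted p = 0.659), Cxcl2 at 1.13 (adjusted p = 0.75) and Ccl7 at 1.82 (adjusted p = 0.0712), and the Nfkbia difference turned to -0.15 (adjusted p = 0.998). Without WT1 or WT2 the late counts were 0 and 1 in wild type and 8 and 8 in knockout, and in knockout the count was 90 without KO2. The middle count of 11 in knockout was 3, 2 and 20 without WT1, WT2 and KO1. In wild type the late count was 24 without KO1 or KO2.

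**Figure D4:**
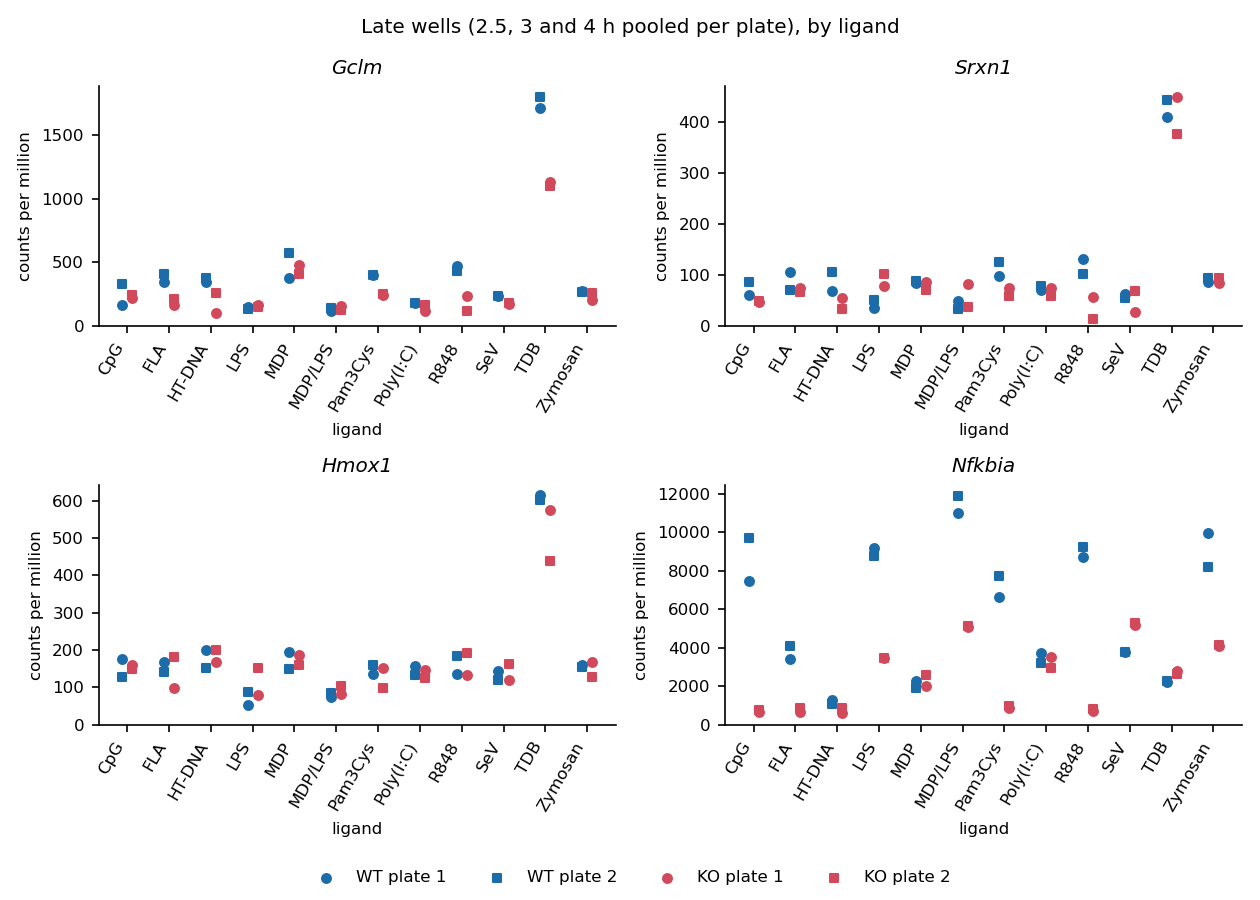
Late CPM (2.5, 3 and 4 h summed) of Gclm, Srxn1, Hmox1 and Nfkbia for each of the 12 ligands, 1 point per plate (wild type blue, knockout red; circles plate 1, squares plate 2). TDB is highest for Gclm (1710, 1800, 1130 and 1100 CPM), Srxn1 and Hmox1 on all 4 plates, and is among the lower ligands for Nfkbia in wild type.

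Set beside the other 11 ligands as a description, TDB gave the highest late level of Gclm, Srxn1, Hmox1, Gclc and Txnrd1 on all 4 plates. For Srxn1 the late TDB levels were 410, 442, 448 and 375 CPM on WT1, WT2, KO1 and KO2, and the next ligand on each plate reached 130, 125, 86.0 and 101 CPM. For Hmox1 they were 614, 602, 576 and 439 CPM, and the next ligand reached 200, 183, 186 and 201 CPM. Sqstm1 with TDB ranked 3, 5, 1 and 2 on WT1, WT2, KO1 and KO2, and Zymosan was highest on WT1, WT2 and KO2. Late Nfkbia, in contrast, was at 2240, 2260, 2810 and 2620 CPM with TDB, ranked 11 and 10 of 12 in wild type and 6 on both knockout plates, and the highest ligand reached 11000, 11900, 5170 and 5270 CPM.

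Wild type and knockout were then compared by the difference of their changes from 0 h. In edgeR's test 0 genes passed in the early, middle or late class (167, 276 and 100 at an unadjusted p under 0.05; 0, 0 and 1 by DESeq2). For the course over 7 times 0 passed (183 at an unadjusted p under 0.05). The oxidative genes had late differences, knockout minus wild type, of -0.23 for Gclm (SE 0.41), 0.10 for Srxn1 (SE 0.51) and -0.35 for Hmox1 (SE 0.45). They were -0.14 for Gclc (SE 0.66), 0.32 for Txnrd1 (SE 0.39) and 0.40 for Sqstm1 (SE 0.33), all at an adjusted p of 1. With SE values of this size, a p that misses the threshold does not show that the changes were equal. Some inflammatory genes had larger positive differences that did not pass either, while Tnf changed little late in either genotype. Cxcl2 stood at 1.89 (SE 0.59, unadjusted p = 0.00209, edgeR adjusted p = 1). Clec4e stood at 1.21 (SE 0.43), Tlr2 at 1.12 (SE 0.49) and Nfkbia at 0.96 (SE 0.32). Their 0 h levels were lower in knockout, and in CPM late Cxcl2 remained higher in wild type, at 919 and 1040 against 264 and 412.

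**Figure D5:**
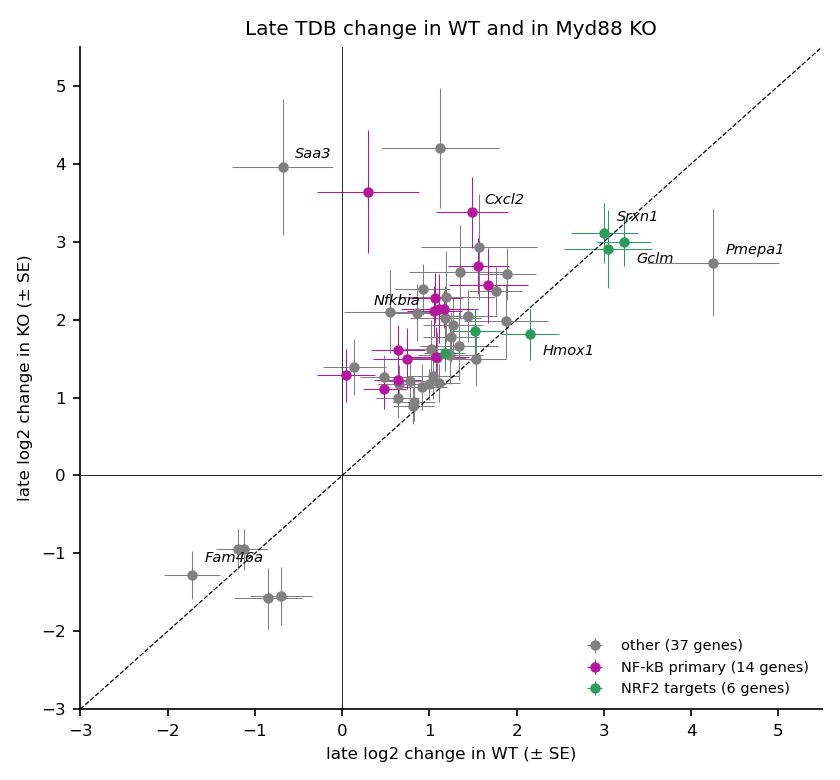
Late log2 change from 0 h in knockout (vertical axis) against wild type (horizontal axis), with SE bars, for the 57 genes called in either genotype: 6 NRF2 targets, 14 NF-kB primary response genes and 37 others; the dashed line marks equal change. The NRF2 targets lie along the line (Gclm at 3.23 and 3.00, Srxn1 at 3.01 and 3.11), and Cxcl2 (1.49 and 3.38) and Clec4e (1.07 and 2.27) lie above it.

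All 15 genes that rose late in wild type also rose in knockout, where they made up 28.8% of 52: Gclm, Gclc, Srxn1, Hmox1, Txnrd1, Sqstm1, Nfkbia, Tlr2, Id2, Id3, Cebpb, Esd, Ezr, Mir22hg and Pmepa1. In the middle class all 4 of wild type were among the 14 of knockout, or 28.6%. Over all 7 times together 27 genes changed in wild type (0.266% of genes) and 63 in knockout (0.62%), and 20 were shared, 74.1% and 31.7% of them. NRF2 targets made up 7 of the 27 and 8 of the 63, with Prdx1 in both and Pgd, an enzyme of the pentose phosphate pathway, in knockout. The late count of 18 in wild type was 1 without WT1 or WT2 and 47 and 46 without KO1 and KO2, and the count of 55 in knockout became 24 without WT1 or WT2. The counts of 27 and 63 over 7 times were 1 and 24 without WT1, 2 and 23 without WT2, and 97 and 109 without KO1. Without KO2 they were 99 and 76.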

How the data were processed

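The deposited table holds raw whole-number counts of 3′ tags for 23481 genes in 384 wells, made by the authors with a modified SCRB-Seq protocol per the labels' protocols. BWA and mm10 are named per the submitters' processing notes, and the counting method is not given in the sources used here, so limits from counts cover counting error only. No TDB wells held identical values, and the 14 pairs of wells of a genotype and time differed beyond sampling noise (lowest chi-square per degree of freedom 2.96).

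Counts were summed per plate into 148 libraries of 74 groups (442957 to 1095162 counts for a TDB class, 3167670 to 4901235 for 0 h). They were scaled by TMM, filtered with a minimum count of 10 and tested over 10562 genes with edgeR 4.0.16 in R 4.3.3 (trended dispersion, robust quasi-likelihood). All groups entered 1 fit, because 2 plates a group alone say little about the spread. The test over 7 times used 340 libraries and 10167 genes. CPM values were computed from raw totals with no pseudocount. The time-matched reference is the mean of the MDP and HT-DNA log levels. Alternatives were DESeq2 1.42.0, RLE scaling, no filter, plates as blocks or left out, fewer groups in the fit, other references, and subtraction of a plate-wide background. That background was the 10th percentile, over inflammatory and interferon-stimulated genes of at least 20 CPM, of the 0 h level relative to the plate mean (24.4% to 29.9%).

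In simulated counts of 10277 genes the late test in wild type recovered 5% of 2-fold and 29% of 4-fold changes with 2 false calls, and the late genotype difference 0% and 11% with 0 false calls.

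Wells of a genotype with the same replicate number share a plate, per the labels. Over 6 pairs of groups the difference between plates correlated with a median r of 0.009 in wild type and 0.035 in knockout. The wells, the 27 gene lists and the named genes were chosen with earlier results of these data known. Named genes are a fixed set, up to 10 with the highest and 10 with the lowest change among genes that passed, had 30 counts or more and changed in 1 direction on both plates, and up to 4 members of each list with the smallest p. Gene positions come from GENCODE for mm10 (644 of 653 symbols found), and upstream sequences from RefSeq.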

Additional observations from a re-analysis of the deposited data

Results flagged for a closer look

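Only the named genes were screened for opposite late changes. In 2 of them the late changes went in opposite directions in the genotypes on every plate, beyond a set margin in log2 CPM. Neither difference passed the test over all genes. Nfkbib, an NF-kB inhibitor of the IkB family, changed by -1.15 and -1.61 on WT1 and WT2 and by 1.19 and 0.95 on KO1 and KO2 in log2 CPM, a fitted difference, knockout minus wild type, of 2.55 (SE 0.81, unadjusted p = 0.00198, edgeR adjusted p = 1). Its 0 h levels were 33.5, 42.0, 14.5 and 13.7 CPM. Saa3, an acute phase protein that macrophages make, changed by -0.56 and -0.78 in wild type and by 3.24 and 2.29 in knockout, a difference of 4.65 (SE 1.04, unadjusted p = 2.09e-05, adjusted p = 0.22). Saa3 stood at 0.426 and 0.508 CPM at 0 h on KO1 and KO2 against 28.6 and 43.6 CPM on WT1 and WT2, and at 4 h at 23.3, 15.7, 22.0 and 24.9 CPM on KO1, KO2, WT1 and WT2, so its late knockout level lies near a few counts per well. Late Saa3 reached 499 and 403 CPM with another ligand on WT1 and WT2. The part of the plate-wide background in the wild-type 0 h level was not tested.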

How the results depend on the processing

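Many counts changed with the plate left out, and many also with other settings. Leaving out 1 plate at a time gave 0 to 1 genes for wild type early, 0 to 8 middle and 1 to 47 late against 0 h, and 1 to 7, 8 to 23 and 24 to 50 for knockout. The genotype differences gave 0 to 1 early, 0 to 1 middle and 0 late. Late against middle gave 0 to 16 in wild type and 1 to 15 in knockout, and late against early 1 to 41 and 15 to 39. Against MDP and HT-DNA the ranges were 0 to 3 middle and 0 to 24 late in wild type, and 0 to 21 early, 2 to 20 middle and 8 to 90 late in knockout. Over 7 times they were 1 to 99 in wild type, 23 to 109 in knockout and 0 to 10 for the difference. With TDB and 0 h groups alone in the fit, counts were 1, 9 and 44 in wild type and 10, 32 and 104 in knockout for early, middle and late, 2 and 1 for the middle and late genotype difference, 14 and 11 for late against middle, 30 and 72 for late against early, 83 and 132 over 7 times and 1 for its difference. With MDP and HT-DNA added to them the late time-matched counts were 17 and 46. With DESeq2 they were 2 and 32 for wild type early and late, 5 and 29 for knockout early and middle, 1 for the late genotype difference, 29 and 53 for late against early, and 16, 1, 18 and 38 for the time-matched wild type late and knockout early, middle and late. With no filter they were 7 and 27 for knockout early and middle, 1 and 2 for the middle and late genotype difference, 8 and 13 for late against middle, 25 and 44 for late against early, 3, 3 and 55 for time-matched wild type middle and knockout early and late, and 47 and 2 over 7 times in wild type and for its difference. With the plate-wide background subtracted they were 1 for wild type early, 9 and 25 for knockout middle and late, 2 and 0 for late against middle, 3, 2 and 4 for time-matched wild type middle and knockout middle and late, and 21 over 7 times in knockout. With bias-adjusted quasi-likelihood, added later, they were 49 for wild type late, 5 and 112 for knockout early and late, 8 for wild type late against middle, 25 and 52 for late against early, and 1, 19 and 44 for time-matched wild type middle and late and knockout late. The 0 h well labelled TDB alone gave 29 for wild type late. HT-DNA alone gave 2, 1 and 74 for time-matched wild type middle and knockout early and late, MDP alone 4, 1 and 3 for wild type late and knockout middle and late, and Pam3Cys, CpG and FLA of knockout 22 and 104 for knockout middle and late. The cause of these moves was not tested, except that a fit with a plate less has fewer samples.

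Of 150 calls of single genes, 147 held with plate as a replicate block, which moved no count by over 1.5 times (late against 0 h: 22 in wild type, 62 in knockout), 53 without WT1, 54 without WT2, 119 without KO1, 116 without KO2, and 84 after background subtraction. Gclm late in wild type held under all 12 settings, between 3.20 and 3.94 (highest adjusted p 0.000748). The 1 direction that turned was Nfkbia in knockout middle against MDP alone, -0.149 (adjusted p = 0.998). The replicate block for the test over 7 times was not run. At 2.39 to 5.01 CPM per count, genes near 10 CPM rest on few counts in a well.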

Other observations

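Other stress and metabolic lists moved little in the late TDB class. Of 19 heat shock genes tested 1 rose in knockout, Hsp90aa1, a cytosolic chaperone (0.94, edgeR adjusted p = 0.0398, and 0.0518 with plate as a replicate block), and 0 in wild type (1 at an unadjusted p under 0.05, and 1 by DESeq2). Of 26 genes of the ATF4 and unfolded protein response Cebpb rose in both genotypes (1.44 and 2.05) and Atf4 in knockout. Of 23 hypoxia and glycolysis genes Slc2a1, a glucose importer, rose in knockout (2.02, adjusted p = 0.00132), and in wild type its change was 1.18 (adjusted p = 0.779). Of 30 lysosome and autophagy genes Sqstm1 alone rose, in both genotypes. In the lists of 6 metal response, 11 IRF3 primary response, 17 cholesterol synthesis, 20 LXR and lipid handling, 13 inflammasome and 30 cell cycle genes tested, 0 passed late in wild type (2, 0, 0, 1, 1 and 1 at an unadjusted p under 0.05) or knockout (3, 0, 0, 1, 3 and 0), and 0 by DESeq2. Late inflammatory genes, of 22 tested, were 0 in wild type (1 at an unadjusted p under 0.05, and 0 by DESeq2) and 2 in knockout, Saa3 and Csf1, and of 19 feedback genes Il1rn rose in knockout and 0 in wild type (3, and 1 by DESeq2).

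Markers of other cell types stayed low in the TDB wells, and their part in the results was not tested. The 13 neutrophil genes summed to 124 to 304 CPM, against 211 to 304 CPM at 0 h, with Elane and Mpo at 0 in every TDB well. T and NK cell genes summed to 0 to 15.7 CPM with 8 of 12 at 0 throughout, B cell genes to 0 to 26.2 CPM with 10 of 12 at 0, and erythroid and mast cell genes to 0 to 34.9 CPM with 11 of 12 at 0. Dendritic cell genes summed to 36.0 to 225 CPM, most of it Bst2, with Flt3, Cd209a and Clec9a at 0, and stromal and endothelial genes to 14.5 to 144 CPM, with Col3a1, Pdgfra and Cdh5 at 0. Of the members tested in these lists 0 passed late in either genotype (1 neutrophil gene in wild type and 2 dendritic cell genes in knockout at an unadjusted p under 0.05, and 0 by DESeq2).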
